A study of Mus musculus with 30 samples.

Results

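The genes that encode the chains of collagens and laminins were followed in whole ovaries of adult female CD1 mice, an outbred strain. Members were taken by symbol: a collagen chain (Col, a number, a and a number) or a laminin alpha, beta or gamma chain (Lama, Lamb or Lamc and a number). Of the 18022 genes in the table, 53 carried such a symbol, and 50 of those had a mean above 0 log2 CPM over the 30 libraries. CPM is a count scaled to the size of its library, and 0 on this log2 scale is 1 CPM. The 50 comprised 10 fibrillar collagens, 8 basement membrane collagens, 11 laminin chains and 21 other collagens. Col17a1 (-0.31), Col19a1 (-1.71) and Col10a1 (-1.62) fell below the limit and were not tested. The members just inside it were Lamb3 at 0.05, Col28a1 at 0.21 and Col9a3 at 0.41 log2 CPM.

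Adult mice were dosed for 10 days with vehicle or with 1 of 2 phthalates. These were di(2-ethylhexyl) phthalate, DEHP, in doses of 20 and 200 ug/kg/day, and diisononyl phthalate, DiNP, in doses of 20 and 100 ug/kg/day. Whole ovaries were removed immediately (0 months) or at 3 months after the last dose, which made 10 groups of 3 libraries each. DEHP and DiNP are plasticizers, both diesters of phthalic acid with branched alkyl chains, and the chains of DiNP are the longer ones. The vehicle and the route are not given in the sources used here. The labels do not say that the 3 libraries of a group came from separate mice, so p-values measure the spread between these libraries. Mice at 3 months were also older and were collected later, and these cannot be told apart from time after dosing.

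Collagens are trimers of alpha chains wound into a triple helix. Fibrillar collagens pack into the fibres of connective tissue, which in the ovary make up the stroma and the capsule, while type IV collagen forms a network in basement membranes. Laminins are heterotrimers of an alpha, a beta and a gamma chain that anchor cells to that membrane. Each ovarian follicle is enclosed by a basement membrane that separates granulosa from theca cells and is broken down when the follicle becomes a corpus luteum.

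The sequences upstream of 6 members are printed here because 5 of these genes fell between 0 and 3 months, and Col4a6, a basement membrane chain that did not pass the test, stands beside them. RefSeq promoters (GRCm38.p6) were matched for 36 of the 50 members. Only bases outside annotated exons and outside the gene itself are shown, 5′ to 3′ on the strand of the gene. They are chr3:145292222-145292471, chr1:45311288-45311537, chr2:27886175-27886380, chr6:4505370-4505492, chr12:31265043-31265145 and chrX:141474096-141474326, in the order of the names below. Each ends at the base directly before the span of its gene, except that of Col1a2, which ends 125 bases before it. The promoter table sets its own start for each gene, which can lie inside that span, and motif counts use the 250 bases before that start. The first 5 lie on the plus strand and Col4a6 on the minus strand. Capitals mark 4 motifs, searched on both strands: the CCAAT box, the GC box core GGGCGG, the TATA box as TATAAA, and the core of the cyclic AMP response element as TGACGT. The 250 bases used for counts hold motifs that the stretches shown leave out. These are 1 GGGCGG for Col4a6, 2 for Lamb1 and 1 CCAAT for Col1a2.
Col24a1: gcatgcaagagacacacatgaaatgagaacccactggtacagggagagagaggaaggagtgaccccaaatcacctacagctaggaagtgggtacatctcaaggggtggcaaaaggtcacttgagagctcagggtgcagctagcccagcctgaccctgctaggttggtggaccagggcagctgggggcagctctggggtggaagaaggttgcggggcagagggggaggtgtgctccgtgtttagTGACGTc
Col3a1: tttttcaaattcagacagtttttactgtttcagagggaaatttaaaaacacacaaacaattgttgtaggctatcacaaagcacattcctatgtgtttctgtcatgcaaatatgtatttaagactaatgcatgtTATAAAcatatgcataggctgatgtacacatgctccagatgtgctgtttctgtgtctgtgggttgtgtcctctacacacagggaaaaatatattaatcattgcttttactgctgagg
Col5a1: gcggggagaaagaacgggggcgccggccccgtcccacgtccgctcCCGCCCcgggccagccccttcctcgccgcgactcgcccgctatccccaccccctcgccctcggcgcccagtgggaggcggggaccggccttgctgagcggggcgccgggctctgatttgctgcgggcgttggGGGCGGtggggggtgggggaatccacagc
Col1a2: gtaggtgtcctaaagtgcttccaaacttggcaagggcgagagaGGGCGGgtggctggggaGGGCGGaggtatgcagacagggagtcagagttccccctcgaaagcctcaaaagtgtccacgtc
Lamb1: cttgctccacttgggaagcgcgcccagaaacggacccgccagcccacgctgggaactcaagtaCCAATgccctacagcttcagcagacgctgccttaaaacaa
Col4a6: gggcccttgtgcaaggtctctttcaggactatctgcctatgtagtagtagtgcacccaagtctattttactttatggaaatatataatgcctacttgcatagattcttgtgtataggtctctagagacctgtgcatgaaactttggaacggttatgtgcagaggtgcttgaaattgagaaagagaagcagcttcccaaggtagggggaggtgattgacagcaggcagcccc
The core of a GC box, GGGCGG, was in the 250 bases before the promoter table's start for 23 of the 36 members (63.9%) and in 32.7% of all 32851 promoters of that length. Among the 7 members with a promoter that fell with time it was in 5 (71.4%), and among the 28 that did not pass it was in 18 (64.3%). CCAAT was in 12 of 36 members (33.3%, against 33.8% of all promoters), TATAAA in 3 (8.33% against 12.4%) and TGACGT in 3 (8.33% against 6.47%). The median GC content was 60.4% in members and 52.4% in all promoters. Members had a single promoter per gene and passed the limit on level, while the 32851 are all entries without either rule, so the sets are unlike. These are matches of letters and not binding sites.

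Expressed per kb of the longest protein-coding transcript, the most abundant members were Col3a1 (type III collagen of reticular fibres) at 7.89 and Col4a1 at 7.87 log2 CPM per kb. Col1a2 stood at 7.61, Col6a1 at 7.26, Col4a2 at 6.96, Col1a1 at 6.55 and Col6a2 at 6.44. Col1a1 and Col1a2 encode the chains of type I collagen, Col4a1 and Col4a2 the common chains of type IV, and Col6a1 and Col6a2 chains of the beaded microfibrils of type VI. Among laminins Lamb1 was highest at 5.76, followed by Lamc1 at 5.25, Lamb2 at 5.15 and Lama1 at 4.96. Lamb3 was lowest of all at -2.23, and Lama3, an alpha chain known from skin and other epithelia, was also low at -0.54.

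**Figure D1:**
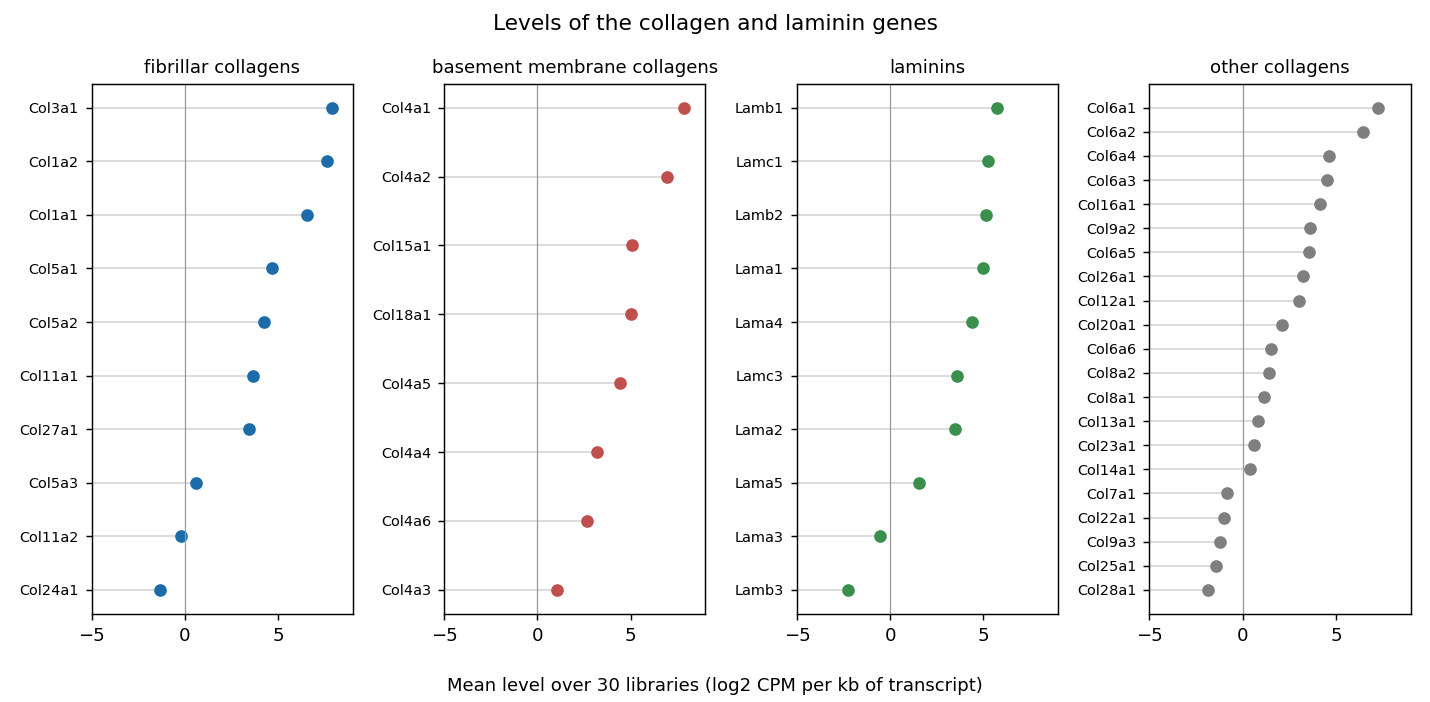
Mean level of 49 of the 50 members over 30 libraries, in log2 CPM per kb of transcript (horizontal axis), by class; each point is 1 gene. Levels run from 7.89 (Col3a1) to -2.23 (Lamb3). Basement membrane collagens run from 7.87 (Col4a1) to 1.05 (Col4a3), and each other class has members below 0.

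Of the libraries, 2 of the 3 from DEHP 200 ug/kg/day at 0 months stood apart. Summed CPM of 10 corpus luteum markers was 43549 in the second and 4353 in the third, against 14110 to 19275 in vehicle at 0 months, and the 10 most abundant genes took 9.92% and 10.1% of the signal, against 5.86% to 6.31% in vehicle. The remaining treated libraries at 0 months had sums from 11713 (DEHP 20) to 39966 (DiNP 100) and shares of at most 7.73%. At 3 months the third DiNP 100 library had the largest share in its 10 top genes, 12.3%. Whole ovary holds many cell types, and fewer cells of a type cannot be told apart from less RNA per cell.

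Most fibrillar collagens were lower at 3 than at 0 months. Over all 5 treatments, each weighted equally, 13 members passed limma with Benjamini-Hochberg adjustment over 14740 genes (adjusted p under 0.05): 12 fell and 1 rose. Among all genes 20.3% passed, 10.6% as higher and 9.63% as lower. By class, 7 of 10 fibrillar collagens fell, as did 2 of 11 laminins and 3 of 21 other collagens, and 1 of 8 basement membrane collagens rose. The median difference was -0.35 log2 for fibrillar collagens, -0.01 for basement membrane collagens, -0.23 for laminins and -0.19 for other collagens, beside 0.00 for all genes. Classes were described by these counts and medians, and the difference between classes was not tested.

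**Figure D2:**
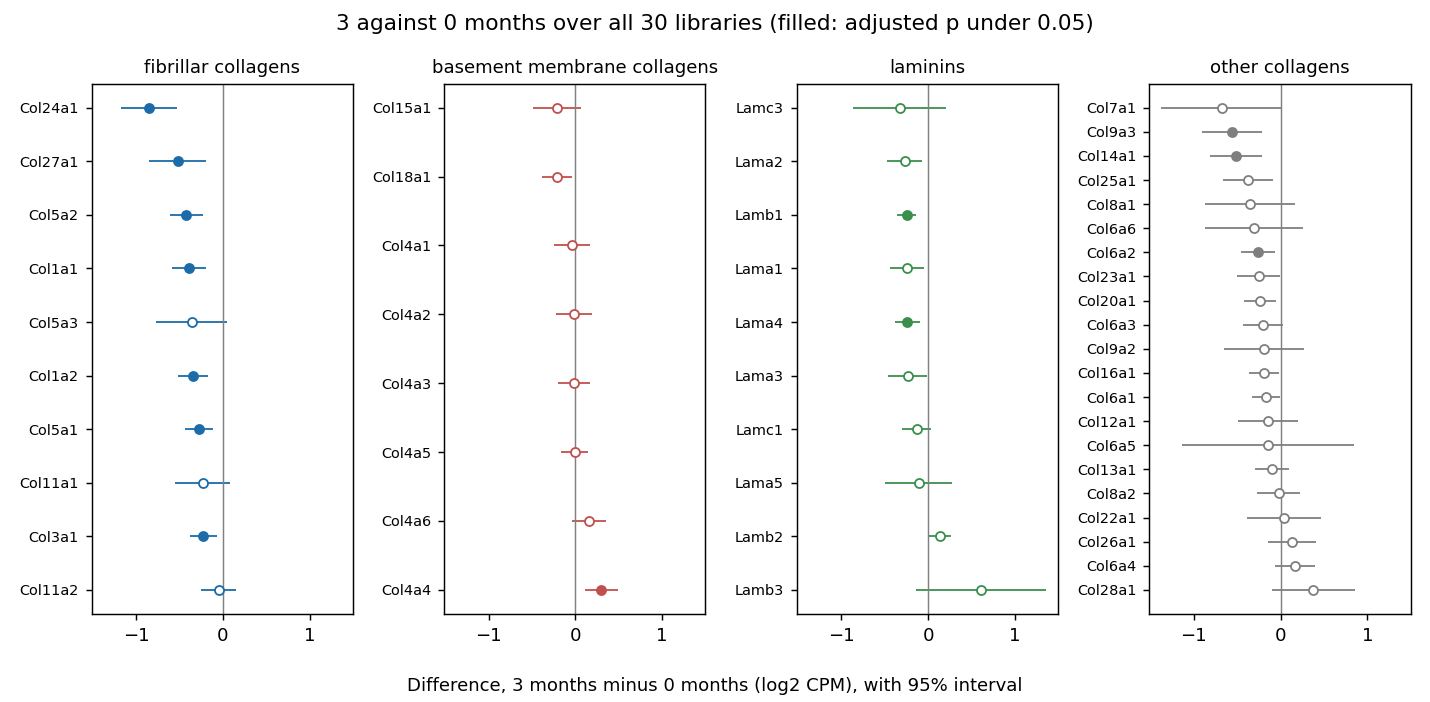
Difference between 3 and 0 months (log2 CPM, horizontal axis) of 49 of the 50 members by class; lines are 95% intervals and filled points passed at adjusted p under 0.05. All 10 fibrillar collagens lie below 0, while the basement membrane collagens lie between -0.21 (Col15a1) and 0.30 (Col4a4).

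Both genes of type I collagen fell. Col1a1 ranged from 8.77 to 10.13 log2 CPM with a median of 9.21 at 0 months, and from 8.39 to 9.19 with a median of 8.99 at 3 months. All 15 libraries at 3 months were below the median at 0 months, though the ranges overlapped. The difference was -0.39 ± 0.10 (SE), so that Col1a1 fell by 23.5% (adjusted p = 0.00854). Col1a2 ranged from 9.63 to 10.70 (median 10.26) at 0 months and from 9.46 to 10.18 (median 9.87) at 3 months. It fell by 21.1% (-0.34 ± 0.08, adjusted p = 0.00673), and its 15 libraries at 3 months again were all under the earlier median.

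Chains of types III and V, which share fibrils with type I, fell as well. Col3a1 went from a range of 9.83 to 10.91 (median 10.52) to one of 9.91 to 10.50 (median 10.24), a difference of -0.22 ± 0.08 (adjusted p = 0.0393). This call was lost in 17 of the 30 fits that left out 1 library (adjusted p 0.0154 to 0.0738). Col5a2, a chain of the type V collagen that starts fibrils and limits their width, fell by 25.2% (-0.42 ± 0.09, adjusted p = 0.00366), from a median of 7.31 to 6.80. Its partner Col5a1 differed by -0.27 ± 0.08 (adjusted p = 0.0195), with 14 of 15 later libraries under the earlier median. Col5a3, the third chain, differed by -0.36 ± 0.20 and did not pass (adjusted p = 0.198).

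The largest fall was that of Col24a1, a scarce fibrillar collagen. It ranged from 0.83 to 2.46 log2 CPM (median 2.02) at 0 months and from 0.22 to 1.61 (median 1.10) at 3 months. The difference was -0.85 ± 0.16 (adjusted p = 0.00126), and it fell by 44.4%. The drop was present in all 5 treatments, at -0.56 in vehicle, -1.19 in DEHP 20, -0.53 in DEHP 200, -0.82 in DiNP 20 and -1.13 in DiNP 100. Col27a1, the other member of that minor branch, fell by 30.1% (-0.52 ± 0.16, adjusted p = 0.0252) and was lower in all 5 treatments. Col11a1 (-0.23 ± 0.15) and Col11a2 (-0.05 ± 0.10), chains best known from cartilage, did not pass.

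**Figure D3:**
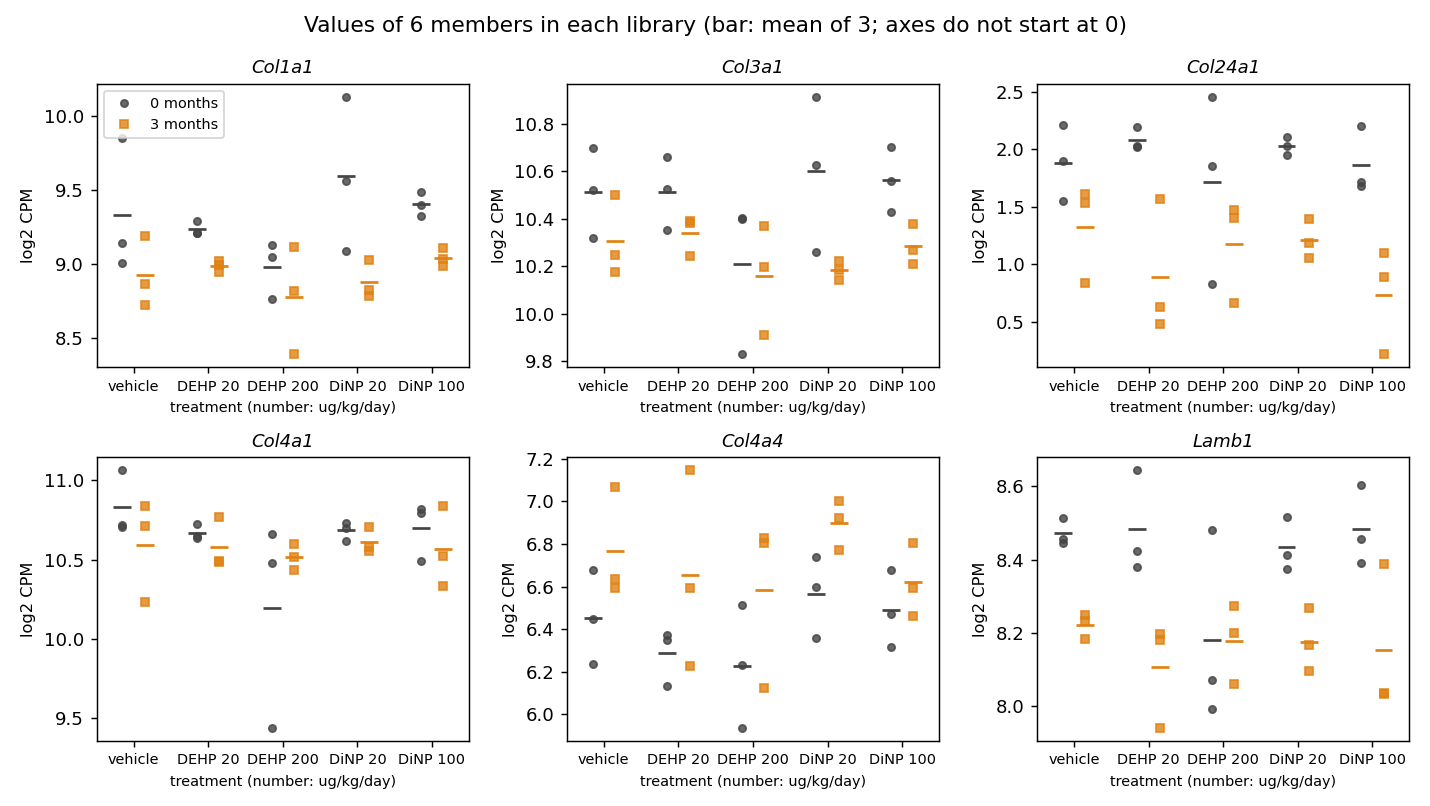
Log2 CPM (vertical axis, not starting at 0) of 6 members in every library, by treatment (horizontal axis) and time; points are libraries and bars means of 3. The means of Col1a1 and Col24a1 are lower at 3 months in all 5 treatments, those of Lamb1 in all but DEHP 200, where they nearly coincide, Col4a4 is higher in all 5, and 1 DEHP 200 library at 0 months holds the lowest Col4a1 value (9.44).

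Basement membrane collagens had a median difference near 0. Col4a1 ranged from 9.44 to 11.06 (median 10.70) at 0 months and from 10.23 to 10.84 (median 10.55) at 3 months, a difference of -0.04 ± 0.10 with a 95% interval of -0.25 to 0.16. Col4a2 differed by -0.01 ± 0.10. In both genes 4 of 5 treatments were lower at 3 months, and DEHP 200 was higher (0.32 and 0.31), the group in which the third library at 0 months had the lowest value of either gene. Col4a3 (-0.01 ± 0.09) and Col4a5 (-0.01 ± 0.08) also lay near 0, and Col4a6 was at 0.16 ± 0.09 (adjusted p = 0.23).

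Col4a4 was the only member that passed as higher over the 30 libraries in this fit. It encodes a chain that joins those of Col4a3 and Col4a5 in the denser type IV network known from kidney. It ranged from 5.94 to 6.74 (median 6.37) at 0 months and from 6.12 to 7.15 (median 6.77) at 3 months, with 13 of 15 later libraries above the earlier median. The difference was 0.30 ± 0.09 (adjusted p = 0.0262) and was positive in all 5 treatments (0.13 to 0.37). Without the third DEHP 200 library at 0 months the adjusted p was 0.0514, and without the third vehicle library at 3 months it was 0.0528. The ratio of Col4a3 to Col4a4 per kb had a median of 0.256 at 0 months and 0.202 at 3 months. Col15a1 (-0.21 ± 0.13) and Col18a1 (-0.21 ± 0.08, adjusted p = 0.0808), which bear a collagen core with proteoglycan side chains, did not pass.

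Among laminins, Lamb1 and Lama4 fell. Lamb1, the beta chain of several widespread laminins, ranged from 7.99 to 8.64 (median 8.45) at 0 months and from 7.94 to 8.39 (median 8.18) at 3 months. The difference was -0.24 ± 0.05 (adjusted p = 0.00348), and all 15 later libraries were below the earlier median. DEHP 200 was the treatment with almost no drop (0.00, against -0.25 to -0.38 in the other 4). Its libraries at 0 months were at 8.48, 8.07 and 7.99, and the part of the lower values in this was not tested. Lama4, an alpha chain of endothelial basement membranes, differed by -0.24 ± 0.07 (adjusted p = 0.0189), with a drop in 4 of 5 treatments.

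The other laminins did not pass and went both ways. Lama2 (-0.27 ± 0.10, adjusted p = 0.054), Lama1 (-0.24 ± 0.10, 0.0749) and Lama3 (-0.23 ± 0.11, 0.126) were below 0, as were Lamc1 (-0.13 ± 0.08), Lamc3 (-0.33 ± 0.26) and Lama5 (-0.11 ± 0.19). Lamb2, the beta chain that replaces Lamb1 in some membranes, was at 0.14 ± 0.06 (adjusted p = 0.1). Lamb2 passed as higher with array weights (0.20 ± 0.05, adjusted p = 0.00151 in limma) and without the second DEHP 200 library at 0 months (0.17 ± 0.06, adjusted p = 0.03), and 3 members passed as higher in each of those fits, where 45.2% and 29.8% of all genes passed. Lamb3 was at 0.61 ± 0.36 (adjusted p = 0.233). Summed over the 11 chains, laminin CPM had a mean of 1568 at 0 months and 1389 at 3 months, and the 10 fibrillar collagens one of 3917 and 3135. The sum for basement membrane collagens was 3113 and 2991.

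Of the other collagens, Col14a1, Col9a3 and Col6a2 fell. Col14a1 and Col9a3 belong to the collagens that sit on the surface of fibrils, and they differed by -0.51 ± 0.14 (adjusted p = 0.0159) and -0.56 ± 0.17 (adjusted p = 0.022). Col6a2 was at -0.26 ± 0.09 (adjusted p = 0.0496) and lost its call in 19 of 30 fits without 1 library (0.0134 to 0.0918). Its partners Col6a1 (-0.17 ± 0.08, 0.126) and Col6a3 (-0.20 ± 0.11, 0.202) lay below 0 and did not pass. Col6a5 had the largest standard error of the 50 members (-0.14 ± 0.48) and ran from 2.57 in the third DEHP 200 library at 0 months to 8.08 in a DiNP 20 library of the same time.

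Some genes of collagen processing and of the interstitial matrix changed with time. Of 29 tested genes for folding, crosslinking and processing, 7 fell and 1 rose, beside 9.63% lower and 10.6% higher among all genes, and 8 of the 29 had differences above 0. Those that fell were Fkbp10, a chaperone (-0.35 ± 0.06, adjusted p = 0.000654), P3h1 (-0.26), the lysyl hydroxylases Plod1 (-0.21), Plod2 (-0.24) and Plod3 (-0.15), the galactosyltransferase Colgalt1 (-0.12) and the procollagen protease Tll1 (-0.75). P3h2, a prolyl hydroxylase, rose (0.90 ± 0.17, adjusted p = 0.0015). Of 21 interstitial partners 11 fell, among them fibronectin Fn1 (-0.60), elastin Eln (-0.52), Fbn2 (-0.66) and the proteoglycan Vcan (-0.82), and Tnc (1.40 ± 0.40) and Tnxb (0.59 ± 0.19) rose.

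Of 15 basement membrane partners 4 passed, beside 20.3% of all genes. Pxdn, which crosslinks type IV collagen (-0.26 ± 0.07), Agrn (-0.22 ± 0.07) and Npnt (-0.39 ± 0.10) fell, and Ntn4, a laminin-related netrin, rose (0.59 ± 0.12). Among 16 receptors Itga6 (-0.54 ± 0.08), Itga2, Itga7 and Itgb4, which are integrin chains, fell, and Sdc1, Sdc4 and Bcam rose. Of 20 proteases and inhibitors only Mmp9, a gelatinase, passed (1.39 ± 0.21, adjusted p = 0.000288).

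Some markers of cell types moved with time too, beside 10.6% of all genes that passed as higher and 9.63% as lower. Summed CPM of 10 granulosa markers had a median of 6659 (4989 to 8813) at 0 months and 4591 (3480 to 6907) at 3 months, and 9 of the 10 fell. All 10 oocyte markers fell, from a median sum of 375 (255 to 601) to 228 (146 to 392). Of 10 smooth muscle and pericyte markers 4 fell, with median sums of 1738 (1181 to 2239) and 1314 (1093 to 1944). Of 8 theca and interstitial markers 4 fell, with sums of 2137 (1602 to 3051) and 2216 (1806 to 3420). Stromal fibroblast markers, which include 2 genes of the interstitial list, had median sums of 1275 (920 to 1771) and 1294 (1078 to 1673), with 3 of 8 lower and 1 higher. All 10 macrophage markers rose, from 192 (116 to 241) to 265 (204 to 464). So did 3 of 10 corpus luteum markers, with sums of 19155 (4353 to 43549) and 39884 (12998 to 55835). Of the 10 markers each of endothelium and surface epithelium 1 rose, which is near the share of all genes. None of 7 adipocyte or 5 oviduct markers passed, but 3 libraries stood apart in their oviduct sums, all at 3 months and all given DEHP. These were 245 and 70.1 after DEHP 20 and 157 after DEHP 200, and the other 27 libraries were at 27.8 or less. The part of these shifts in the collagen and laminin differences was not tested.

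In vehicle alone limma passed no member between 3 and 0 months and 0.00678% of all genes. At an unadjusted p under 0.05 there were 7 members, all lower, beside 7.98% of all genes (3.88% lower). All 10 fibrillar collagens were below 0, with a median of -0.32. Col18a1, the source of endostatin, had the smallest p. Its vehicle values were 7.80, 7.92 and 7.80 at 0 months and 6.94, 7.65 and 6.82 at 3 months, which did not overlap. The difference was -0.70 ± 0.19 (adjusted p = 0.416). On the higher side Lamb2 had the smallest p, at 0.21 ± 0.14.

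Treatment gave no call. In each of the 8 comparisons of a treated group with its vehicle, limma passed 0 of 50 members and 0% of all genes. Members with p under 0.05 at 0 months numbered 1 for DEHP 20, 9 for DEHP 200, 0 for DiNP 20 and 3 for DiNP 100, beside 2.37%, 5.02%, 2.08% and 1.75% of all genes. At 3 months they numbered 3, 0, 0 and 5, beside 1.68%, 1.44%, 1.52% and 9.28%. Tests of any treatment effect passed 0 members at either time, with p under 0.05 in Col5a1, Col5a2, Col5a3, Lama2 and Lamc1 at 0 months (5 members and 2.2% of all genes) and in Col13a1 at 3 months (1 member and 3.99%). Whether treatment effects differed between the times was tested too, with 0 members passing and 2 at p under 0.05, Lama2 and Lamc1 (2.64% of all genes).

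**Figure D4:**
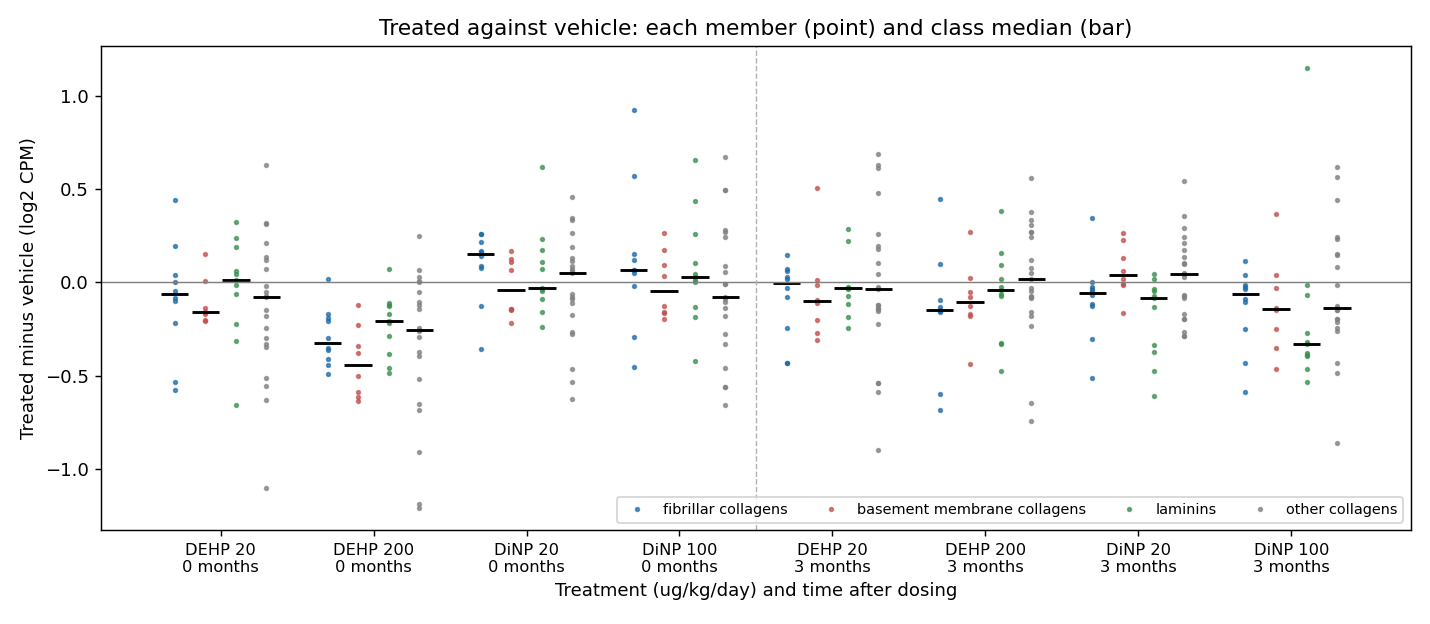
Difference from vehicle (log2 CPM, vertical axis) of each member in the 8 treated groups (horizontal axis); points are genes, colours classes and bars class medians. DEHP 200 at 0 months has all 4 medians below 0 (-0.21 to -0.44), and the laminin median of DiNP 100 at 3 months is -0.33.

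After DEHP 200 at 0 months, 44 of 50 members were below vehicle, against 50.4% of all genes, and the members' median was -0.28. The 9 with p under 0.05 were all lower (3.31% of all genes), and 5 members, Col4a1, Col18a1, Col5a2, Col11a2 and Lama4, lay below vehicle without overlap (4.25% of all genes). Basement membrane collagens had a median of -0.44 with 8 of 8 below 0, fibrillar collagens -0.33, other collagens -0.25 and laminins -0.21. Col4a1 was 10.48, 10.66 and 9.44 after DEHP 200 and 10.72, 11.06 and 10.71 in vehicle. These did not overlap, and the third treated library lay far below the others. The difference was -0.64 ± 0.22 (adjusted p = 0.914 in limma). Lama4 was 6.96, 6.86 and 6.79 against 7.17, 7.54 and 7.29, again without overlap, a difference of -0.46 ± 0.15 (adjusted p = 0.914). The other 7 at p under 0.05 were Col4a2 (-0.61), Lamc1 (-0.49), Col18a1 (-0.50), Lamb1 (-0.29), Col5a2 (-0.49), Col5a1 (-0.41) and Col8a1 (-1.21). Among members above vehicle Col26a1 had the smallest p, at 0.25 ± 0.30.

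Leaving out any 1 library kept the class medians below 0, at -0.55 to -0.20 for basement membrane and -0.44 to -0.22 for fibrillar collagens. The difference of Lama4 ran from -0.54 to -0.36 in those fits. The class medians moved when both libraries that stood apart were left out, a fit added after seeing the data. With the first DEHP 200 library alone, whose spread is then assumed to equal that of the other groups, the medians were -0.066 for basement membrane collagens, -0.12 for fibrillar collagens, -0.076 for laminins and 0.095 for other collagens. With all 3 libraries, corpus luteum markers had 9 of 10 below vehicle (median -0.76), beside 50.4% of all genes. Their sums lay on both sides of vehicle, at 4353, 12560 and 43549 against 14110 to 19275. Surface epithelium markers had 9 of 10 below vehicle (-0.41) and endothelial markers 7 of 10 (-0.20). Markers of macrophages were above vehicle in 9 of 10 (0.28). None of these passed, and their part in the result was not tested. At 3 months the same dose left Col4a1 at -0.08 ± 0.22 and Lama4 at -0.06 ± 0.15 from vehicle.

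DiNP 100 at 3 months had 10 of 11 laminins below vehicle, with a median of -0.33, beside 48.5% of all genes below vehicle. The direction was shared by 8 of 10 fibrillar and 6 of 8 basement membrane collagens, and by 37 of all 50 members. Lama4 was 6.79, 6.77 and 6.09 against 6.97, 6.82 and 7.05, without overlap and with a difference of -0.39 ± 0.15 (adjusted p = 0.518 in limma). Lama2 was 6.10, 6.73 and 5.90 against 7.05, 6.73 and 6.55 (-0.53 ± 0.22), and Lamc1 8.11, 8.06 and 7.24 against 8.15, 8.06 and 8.33 (-0.38 ± 0.18). In Lama4 and Lamc1 the third treated library was far under the rest. Without it the laminin median was -0.052. Without the second library instead, Lama2 passed at -0.78 ± 0.22 (adjusted p = 0.049), and 4.29% of all genes passed in that fit. With all libraries kept, fibrillar collagens had a median of -0.06 against vehicle, and leaving out any 1 library gave -0.16 to 0.067. Corpus luteum sums were 31561 to 55487 after DiNP 100 and 16997 to 55835 in vehicle, and all 10 macrophage markers were above vehicle; their part was not tested.

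Col13a1, a collagen that spans the cell membrane, had the smallest p of a higher member in 3 of the 4 treated groups at 3 months. Its values were 2.01, 1.74 and 2.56 in vehicle, 2.51, 2.69 and 2.99 after DEHP 20, and 2.60, 2.61 and 2.95 after DiNP 100. The DiNP 100 libraries were all above vehicle and the DEHP 20 libraries overlapped with it. The differences were 0.63 ± 0.21 for DEHP 20 (adjusted p = 1) and 0.62 ± 0.21 for DiNP 100 (adjusted p = 0.518), beside 0.33 ± 0.21 for DEHP 200. The 3 comparisons share their vehicle libraries, whose mean of 2.10 was below the 2.59 of vehicle at 0 months. At 0 months Col11a2 had the smallest p on the lower side after DEHP 20 (-0.58 ± 0.22) and DiNP 20 (-0.36 ± 0.22), and Col6a4 after DiNP 100 (-0.56 ± 0.25), where Col5a3 was higher (0.92 ± 0.44). On the higher side these were Col11a1 after DEHP 20 (0.44 ± 0.34) and Col26a1 after DiNP 20 (0.46 ± 0.30). At 3 months the smallest p on the lower side was that of Col4a5 after DEHP 20 (-0.31 ± 0.17) and Col27a1 after DEHP 200 (-0.68 ± 0.35). On the higher side after DiNP 20 it was that of Col20a1 (0.29 ± 0.20). None of these passed.

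DEHP and DiNP were given at 1 common dose, 20 ug/kg/day, and were compared there at both times. No member passed at either, with p under 0.05 in 0 members at 0 months (2.05% of all genes) and 2 at 3 months (2.9%), Col13a1 and Col8a2. Col1a1 was 9.21, 9.29 and 9.21 after DEHP and 9.56, 10.13 and 9.09 after DiNP at 0 months, so the ranges overlapped. The difference was -0.36 with a 95% interval of -0.80 to 0.09, and at 3 months 0.11 (-0.34 to 0.55). The interval for Col4a1 was -0.47 to 0.44 at 0 months and -0.49 to 0.43 at 3 months, and for Lamb1 -0.19 to 0.29 and -0.31 to 0.17. Col13a1 at 3 months was 0.59 ± 0.21 higher after DEHP, at 2.51, 2.69 and 2.99 against 2.10, 2.32 and 2.01, without overlap (adjusted p = 1). Col4a6 was on the lower side there (-0.43 ± 0.21), and at 0 months the smallest p values were those of Col5a3 (-0.80 ± 0.44) and, on the higher side, Col13a1 (0.21 ± 0.21). Between doses of 1 compound no member passed either, and p was under 0.05 in 7 for DEHP at 0 months (3.95% of all genes), led by Lama2 (-0.63 ± 0.22). For DiNP at 3 months it was under 0.05 in 7 (12.2%), led by Col13a1 (0.58 ± 0.21) and Lama4 (-0.41 ± 0.15). It was in 0 members for DiNP at 0 months (0.583%), where Col5a3 (0.66 ± 0.44) and Col6a4 (-0.28 ± 0.25) came first, and in 0 for DEHP at 3 months (0.957%), where Col22a1 (0.86 ± 0.46) and Col14a1 (-0.55 ± 0.32) did.

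Several pairs of chains varied together from library to library. Deviations from the group means over 30 libraries were correlated for 8 pairs, with a permutation test within groups and adjustment over the 8. Col4a1 and Col4a2 had r = 0.98 (rho 0.94, adjusted permutation p = 2.67e-05 from the smallest p the permutations can give), and 0.95 without the 2 libraries farthest out. In each pair those 2 were chosen by the deviation of the first-named gene alone. Their spans run head to head on chromosome 8 (11198423 to 11312889 on the minus strand and 11312805 to 11449287 on the plus strand, GRCm38.p6) and share 85 bases. The ratio of Col4a1 to Col4a2 per kb stayed between 1.76 and 2.02 in all 30 libraries. Col6a1 and Col6a2 had r = 0.90 (rho 0.89, 2.67e-05), and Col1a1 and Col1a2 r = 0.89 (rho 0.86, 2.67e-05). Without the 2 farthest libraries these were 0.90 and 0.83. Col3a1 and Col5a2, on opposite strands of chromosome 1 with 24624 bases between their spans, had r = 0.87 (rho 0.86, 0.00024) and 0.78 without 2.

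The other head-to-head pairs were looser. Col4a3 and Col4a4 overlap by 114 bases on chromosome 1 and had r = 0.62 (rho 0.61, adjusted permutation p = 0.00682), and 0.68 without the 2 farthest libraries. Col4a5 and Col4a6, 1274 bases apart on the X chromosome, had r = 0.47 (rho 0.51, adjusted permutation p = 0.056) and 0.45. Lamb1 and Lamc1 had r = 0.56 (rho 0.51, 0.056), which fell to 0.26 without the 2 libraries farthest out in Lamb1. Leaving out any 1 library gave 0.40 to 0.72. Col1a1 and Col4a1, from different classes, had r = 0.23 (rho 0.37, adjusted permutation p = 0.196) and 0.40. The permutation p of rho, which was not adjusted over the 8 pairs, was 0.0316 or less in every pair except Col1a1 with Col4a1, where it was 0.0884. Within times, r at 0 and 3 months was 0.42 and 0.70 for Col4a3 with Col4a4, 0.28 and 0.67 for Col4a5 with Col4a6, and at least 0.79 in both for the 4 tightest pairs. The libraries were made from a strand-specific kit, but whether counting used the strand is not given in the sources used here, so reads from the shared bases of overlapping genes cannot be assigned.

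**Figure D5:**
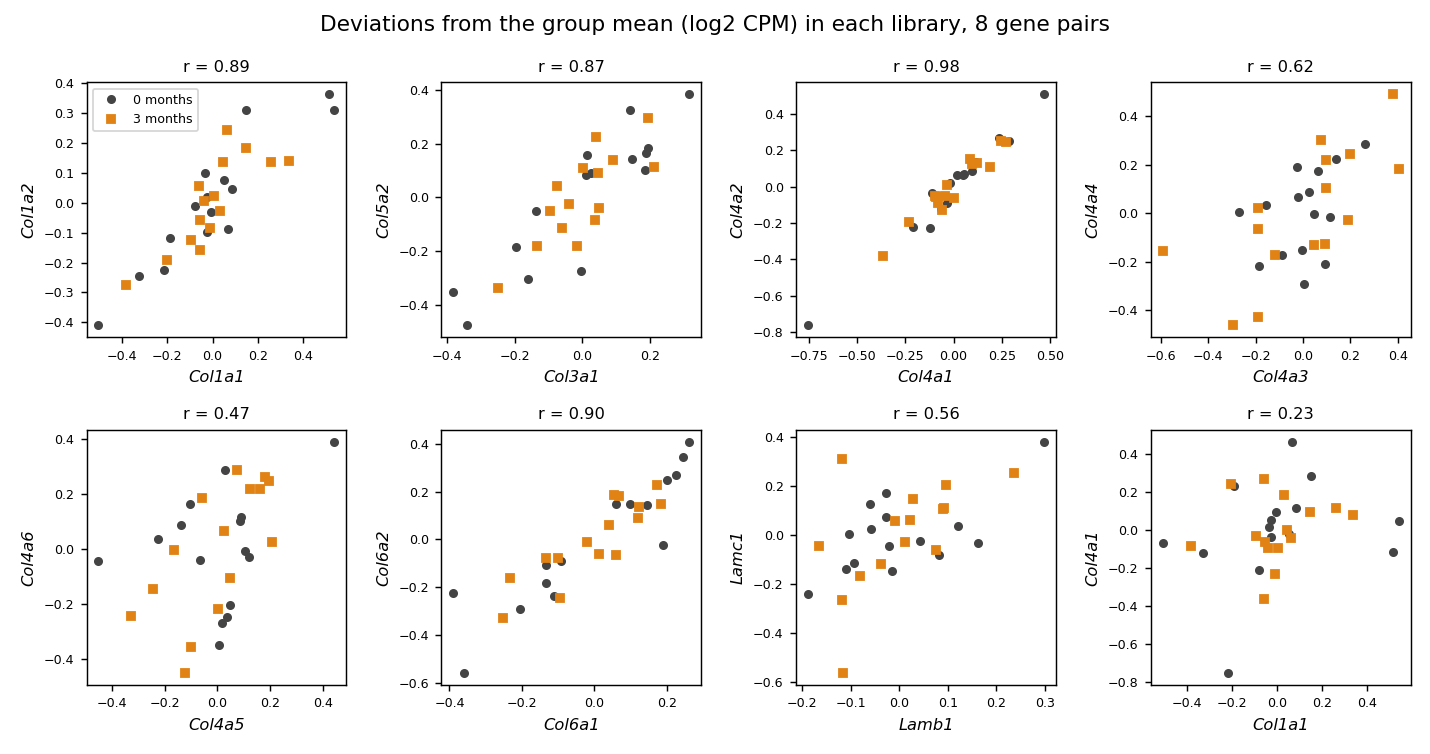
Deviation from the group mean (log2 CPM) of 1 gene against that of another in each of 30 libraries, for 8 pairs, by time. Col4a1 and Col4a2 lie close to a line (r = 0.98), while Col1a1 and Col4a1 scatter (r = 0.23).

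Over all 1225 pairs of members the median r was 0.14, as a description of libraries that share depth and cell makeup. The median was 0.49 among the 28 pairs of basement membrane collagens, 0.34 among the 45 fibrillar pairs, 0.11 among the 55 laminin pairs and 0.19 between fibrillar and basement membrane members. The closest member to Col4a1 after Col4a2 was a laminin, Lamb2 (r = 0.80). The third DEHP 200 library at 0 months had the lowest value of both genes (9.44 and 7.02 log2 CPM), and r without it was not computed. Lama4 was closest to Lamc1 (0.78) and Lama5 to Lamc3 (0.79). Col5a1 and Col5a2 had the second highest value of all pairs, 0.90, and Col15a1, a basement membrane collagen, was closer to Col5a1 (0.85) than to Col18a1 (0.79).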

How the data were processed

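Ovarian mRNA libraries (TruSeq stranded kit, single reads, per the labels' protocols) were read as 1 deposited table of log2 CPM for 18022 genes in 30 libraries. The submitters' processing notes name FastQC 0.11.8, Salmon 0.11.3, edgeR, R 3.5.2 and GRCm38.p6, without the role of each. The deposited log2 values hold no counts, so read depth is unknown, and library sums of CPM ran from 907668 to 1164842. The 14740 genes with a mean above 0 were fitted with limma 3.58.1 in R 4.3.3 (1 mean per group over all 30 libraries, variance trend, residual df 20), and p-values were adjusted by Benjamini-Hochberg within each comparison. Low log2 CPM values carry the authors' offset, which shrinks differences of scarce genes. Correlations used 100000 permutations within groups. Gene coordinates and promoters came from RefSeq tables of GRCm38.p6 and transcript lengths from GENCODE.

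The members, their classes and the gene lists were chosen with earlier results of these data known. Named were the main chains, every member that passed, and in each comparison the member with the smallest p in each direction. Listed partners and markers were counted in full and named where they passed. Alternatives were other filters (none, or a mean above 2), log2(CPM + 1), median centring, quantile normalization, other variance models, array weights, each time fitted alone, a replicate block and leaving out each library. Leaving out 2 libraries of DEHP 200 at 0 months, or 2 of DiNP 100 at 3 months, was added after seeing the data. The fits were tested on simulated data. Values of 1 member are not reported here by name; counts, sums and medians include it.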

Additional observations from a re-analysis of the deposited data

Results flagged for a closer look

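Col5a3, the third chain of type V collagen, moved in opposite directions with time under the 2 compounds at their common dose. After DEHP at 20 ug/kg/day its values were 2.49, 2.93 and 2.83 log2 CPM at 0 months and 3.48, 3.25 and 3.48 at 3 months, so every later library was higher, by a mean of 0.66. After DiNP at 20 ug/kg/day they were 3.05, 3.77 and 3.82 and then 2.52, 2.70 and 3.02, so every later library was lower, by a mean of -0.80. In the other treatments the change was -0.03 in vehicle, -0.42 after DEHP 200 and -1.20 after DiNP 100, so only DEHP 20 had a higher mean at 3 months. Col5a3 was found by a search of the members for time changes without overlap that ran in opposite directions between treatments. The share of all genes that meet this rule was not counted, and the difference between the changes of Col5a3 was not tested. In the test of all treatments by time Col5a3 had an adjusted p of 1 (limma).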

How the results depend on the processing

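For members called, 790 alternative values equalled the reported count or stayed within 1.5 times it, and 5 moved. Only the count over time in all groups was above 0, so most of the 790 were 0 against 0. The 13 members called between 3 and 0 months (20.3% of all genes) numbered 26 with array weights (45.2%) and 20 without the second DEHP 200 library at 0 months (29.8%; range 11 to 20 without 1 library), and both sets kept all 13. They numbered 18 after quantile normalization (19.6%), 15 without 2 DEHP 200 libraries (21%) and 9 without 2 DiNP 100 libraries (11.7%). Array weights called 3 members and 3.6% of all genes in vehicle over time. Leaving out 1 library gave 0 to 1 for DiNP 100 against vehicle at 3 months and 0 to 2 for DiNP 100 against DiNP 20, the highest without the second DiNP 100 library (Lama2, and Col4a3 with it), where 4.29% and 9.06% of all genes passed. Col6a2 also lost its time call with no filter (adjusted p = 0.0528) and without the trend (0.0538). Differences of single members kept their direction and side in 1662 alternatives, 40 lost a call and 1 turned: Col6a4, DiNP 100 against DiNP 20 at 0 months, was -0.28 and became 0.021 without the second DiNP 20 library (lowest -0.46, without the third).

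Class medians stayed within 1 SD in 1568 alternatives and moved in 24. With the first DEHP 200 library alone at 0 months they were -0.12 (fibrillar), -0.066 (basement membrane), -0.076 (laminins) and 0.095 (other collagens), and with the second DiNP 100 library alone at 3 months other collagens were at 0.17. Array weights gave fibrillar medians of -0.21 for DEHP 20 and -0.24 for DiNP 20 at 3 months, and laminin medians of -0.067 for DiNP 100 at 3 months and -0.20 for vehicle over time. Leaving out 1 library gave basement membrane medians of -0.20 to -0.093 for DEHP 20 and -0.13 to 0.011 for DiNP 100 at 0 months. Laminin medians ran from -0.016 to 0.11 for DEHP 20, -0.37 to -0.17 for DEHP 200 and -0.033 to 0.11 for DiNP 20 at 0 months. At 3 months they ran from -0.062 to 0.092 for DEHP 200 and -0.47 to -0.052 for DiNP 100, and in vehicle over time from -0.18 to -0.022. Other collagens ran from -0.17 to 0.13 for DiNP 100 at 0 months and -0.24 to 0.044 at 3 months.

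Correlations kept their side of the threshold in 255 alternatives. Lamb1 with Lamc1 passed at r = 0.61 after median centring and 0.61 after quantile normalization, and Col4a5 with Col4a6 at 0.54 after quantile normalization. Without 1 library the ranges were 0.40 to 0.72, 0.32 to 0.54 and, for Col1a1 with Col4a1, 0.10 to 0.34, and of 30 such fits each, 7, 5 and 1 passed. Replicate numbers did not pair libraries: same-numbered libraries correlated from -0.45 to 0.39, and 10 of 30 were closest to their own number. With the replicate block the time count was 13, and Lamb1 with Lamc1 had r = 0.56 and passed (adjusted permutation p = 0.034). The causes of these shifts were not tested. Fits of each time alone could not give differences over time.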
